A study of Schizosaccharomyces japonicus with 6 samples.

Results

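The *clr4-1* strain of the fission yeast *Schizosaccharomyces japonicus* has an altered gene for Clr4, the enzyme that methylates lysine 9 of histone H3, and stops growing at high temperature; the values below compare RNA from *clr4-1* cells with RNA from WT cells. Expression is given in FPKM, fragments mapped to a gene scaled by the length of its transcript and by the size of the library. Genes were taken where the 2 *clr4-1* and the 2 WT libraries together averaged at least 1 FPKM, which held for 4856 of the 5272 genes listed. The *clr4-1* allele came from error-prone PCR of *clr4*, carries 1 amino acid change in the catalytic SET domain and a silent change in the part encoding the chromodomain, and is linked to the natMX6 marker. The WT strain, NIG5572, has no marker at that gene. Both strains are h-, carry the *ura4* D3 deletion and the *ade6* domK allele, and grew in YES, a rich medium with uracil and adenine, at 30 °C. Another strain of that background, *pab2*Δ, had the gene of Pab2 deleted, a protein that binds poly(A) tails in the nucleus. It was sequenced beside them in 2 libraries, and its values are given where *clr4-1* cells are set against it. All 6 libraries, those of *pab2*Δ included, went into the estimate of spread behind the standard errors and p-values below.

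Clr4 places methyl groups on lysine 9 of histone H3. Chromodomain proteins of the HP1 family, such as Swi6 and Chp2, bind the mark and hold the chromatin in a silent state called heterochromatin. In fission yeasts this silent chromatin covers centromeres, chromosome ends and the mating-type locus, and in *S. japonicus* the centromeres and chromosome ends are rich in retrotransposons, mobile elements whose *gag* and *pol* genes encode a capsid-like protein and the enzymes that copy the element. *clr4* is essential in *S. japonicus*, so cells with a conditional allele were used in place of a deletion.

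The 4 libraries were alike in their overall values. The FPKM values summed to 1080821 and 1063580 in the *clr4-1* libraries and to 1068001 and 1047611 in the WT libraries, and the 10 highest genes held between 27.6% and 29.7% of the sum. The 2 libraries of a strain had a Spearman correlation across the tested genes of 0.994 in *clr4-1* cells and of 0.995 in WT cells, where genes are not independent replicates. Between 276 and 344 of the genes were listed at 0 in a library, of which 221 to 269 were tRNA genes. The number of fragments behind an FPKM value is unknown, so no counting error can be given. With 2 libraries per strain, p-values measure the spread between libraries of a strain only, taken over all 6 libraries, those of *pab2*Δ included.

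The *clr4* gene itself had more RNA in *clr4-1* cells. It had 19.6 and 23.3 FPKM in the *clr4-1* libraries, against 9.34 and 9.48 FPKM in the WT libraries. Both *clr4-1* libraries lay above both WT libraries, which was so in 1281 of the 4856 genes (26.4%), while in 2291 (47.2%) both lay below. The log2 fold change was 1.10 ± 0.11 (SE, n = 2 per strain; limma, adjusted p = 0.0013). Fold changes here and below are differences of log2(FPKM + 1), which understate the change of genes with low values, and adjusted p-values come from limma with Benjamini-Hochberg adjustment over all 4856 genes. In *pab2*Δ cells, whose *clr4* gene was not altered, *clr4* had 9.70 and 7.99 FPKM. An expression value cannot show the point change of the allele. Whether the linked marker has a part in it was not tested.

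The genes on either side of *clr4* did not share one direction. *ubc4*, which encodes a ubiquitin-conjugating enzyme and lies next to it on one side, had 1190 and 1193 FPKM in *clr4-1* cells and 1301 and 1313 FPKM in WT cells (log2 fold change -0.13 ± 0.02, SE; limma, adjusted p = 0.00296). *rpn3*, a proteasome subunit gene beyond *ubc4*, had 87.1 and 84.5 FPKM in *clr4-1* cells against 94.4 and 96.2 FPKM in WT cells, and its call was lost after TMM scaling (limma, adjusted p = 0.0624). On the other side, *meu6*, a gene of meiotic chromosome segregation, had 7.79 and 8.01 FPKM in *clr4-1* cells and 5.25 and 5.15 FPKM in WT cells. *rxt2*, which encodes a subunit of a histone deacetylase complex, had 26.6 and 23.9 FPKM in *clr4-1* cells and 39.97 and 36.5 FPKM in WT cells. *meu6* therefore rose by 0.52 (limma, adjusted p = 0.000864) and *rxt2* fell by 0.58 (limma, adjusted p = 0.0022) on the log2 scale, so that of the 4 neighbours of *clr4* 1 was higher and 3 were lower.

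*pab2*, the gene deleted in *pab2*Δ cells, had a listed value of 0 in each library of that strain. It had 161 and 174 FPKM in *clr4-1* cells and 145 and 142 FPKM in WT cells, a log2 fold change of 0.22 ± 0.05 (SE; limma, adjusted p = 0.0157). The call was lost in 3 of the 4 fits that left out a library, *clr4-1* replicate 2 or either WT library.

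**Figure D1:**
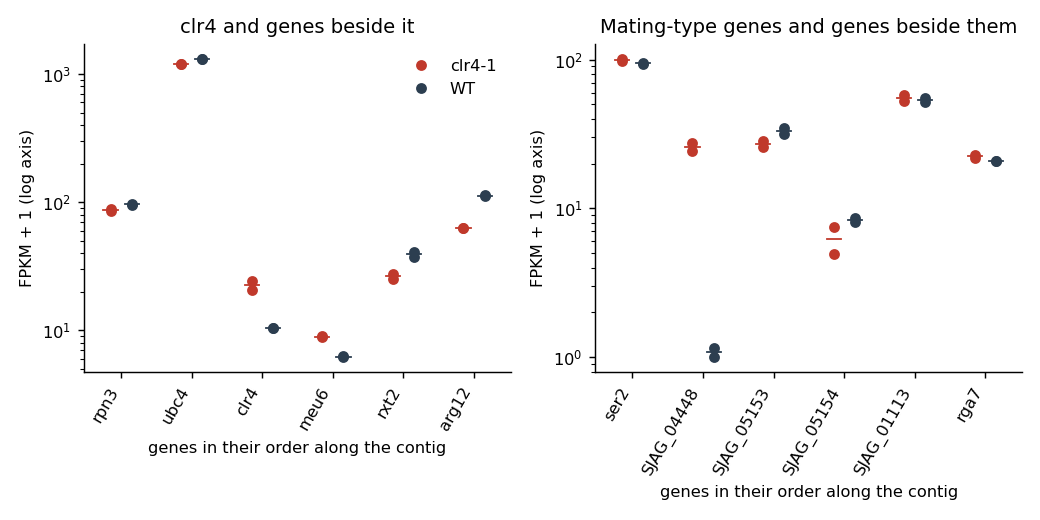
FPKM + 1 (log axis) of *clr4* and the genes beside it (left) and of the mating-type genes and the genes beside them (right), in the order they have on the contig. Each point is 1 library, short lines are means of the 2 libraries, red is *clr4-1* and dark blue is WT; *clr4* and SJAG_04448 are the genes with *clr4-1* points well above the WT points.

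Across all genes, 738 of 4856 (15.2%) were higher and 1345 (27.7%) were lower in *clr4-1* than in WT cells at an adjusted p under 0.05. The balance depended on scaling. After scaling by TMM (trimmed mean of M-values), 1026 genes were higher and 864 lower, so that higher genes made up 54.3% of the calls after TMM and 35.4% with the values as deposited. Over all genes tested the median difference was -0.07 as deposited and 0.00 after TMM. Changes of at least 2-fold were few and were affected less: 33 genes (0.680%) were at least 2-fold higher and 55 genes (1.13%) were at least 2-fold lower, and all 33 and 50 of the 55 were still at least 2-fold changed after TMM.

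The 33 increases and the 55 decreases lay at different levels of expression. The median WT level of the genes at least 2-fold higher was 0.280 FPKM, against 73.2 FPKM for those at least 2-fold lower. Of the 33 higher genes, 23 had a WT mean under 1 FPKM, and 10 of the 33 were listed at 0 in at least 1 WT library, for which no ratio is given. A gene with a WT mean under 1 FPKM passed the filter only through its values in *clr4-1* cells and so had to be higher there, and nothing is read from the number of such genes that passed. Among the 865 tested genes with a WT mean of 100 FPKM or more, none was at least 2-fold higher and 21 were at least 2-fold lower. By kind, 31 of the 33 were protein-coding genes and 2 were tRNA genes, and 10 of the 33 had no annotation.

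At the filter, the tested genes with the lowest means were the tRNA pseudogene SJAG_16441, with 0 and 4.02 FPKM in *clr4-1* cells and 0 in both WT libraries, and the tRNA genes SJAG_16326 and SJAG_16428, each with 0 and 4.04 FPKM in *clr4-1* cells and 0 in both WT libraries. Just outside it lay *pat1*, the kinase that keeps fission yeast cells from entering meiosis, with 0.890 and 1.01 FPKM in *clr4-1* cells and 1.13 and 0.880 FPKM in WT cells. A ratio above 2 in both replicates, which pairs libraries of the same number, was found in 31 genes (0.638%), and a ratio below 0.5 in both in 56 genes (1.15%). Of the genes at least 2-fold higher by the model, 23 of 33 met the first of these rules, and of those at least 2-fold lower, 52 of 55 met the second.

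The 4 largest increases were in transposon-related genes. The list held 7 genes annotated as transposon fragments, as retrotransposon Gag, zinc-knuckle or protease domains or, in 1 case, as a chromo and chromo shadow domain. All 7 were at least 2-fold higher in *clr4-1* cells, with a median log2 fold change of 4.65, against -0.07 over all genes tested. The annotation of all 7 comes only from the study's own tables, which include lists of genes changed in these samples. Each of the 7 had a WT mean under 1 FPKM, so it passed the filter only through *clr4-1* cells and had to be higher there. Neither the count nor the median is therefore independent evidence of direction. The summed level of the 7 genes was 302.8 and 308.0 FPKM in the *clr4-1* libraries, against 2.64 and 2.22 FPKM in the WT libraries. In *pab2*Δ libraries it was 5.10 and 4.88 FPKM.

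SJAG_06641, whose annotation names a chromo and a chromo shadow domain, had the largest change. It had 88.0 and 99.2 FPKM in *clr4-1* cells and 0.163 and 0.309 FPKM in WT cells, a log2 fold change of 6.26 ± 0.38 (SE; limma, adjusted p = 2.27e-04). The ratio of its FPKM values was 540 in replicate 1 and 320 in replicate 2. In *clr4-1* cells its level was more than 3 times the median of all tested genes, which was 26.0 and 25.7 FPKM in the 2 libraries.

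SJAG_03766, a transposon fragment, had 73.5 and 81.2 FPKM in *clr4-1* cells and 0.0996 and 0.142 FPKM in WT cells (log2 fold change 6.13 ± 0.24, SE; limma, adjusted p = 4.15e-05). SJAG_03765, the fragment beside it, had 48.4 and 41.5 FPKM in *clr4-1* cells and 1.23 and 0.491 FPKM in WT cells (4.65 ± 0.20, SE; limma, adjusted p = 5.21e-05). SJAG_16458, a retrotransposon Gag gene next to both, had 18.3 and 16.2 FPKM in *clr4-1* cells and 0.777 and 0.970 FPKM in WT cells. These 3 genes were consecutive at 1 end of a long contig, and each was higher in both *clr4-1* libraries than in either WT library. The run stopped at the next gene. *dcd1*, which encodes a predicted deoxycytidylate deaminase, had 28.8 and 26.1 FPKM in *clr4-1* cells and 27.3 and 24.9 FPKM in WT cells, and its difference of 0.07 ± 0.07 (SE, log2 scale) did not pass the test (limma, adjusted p = 0.436).

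The other 3 transposon-related genes lay on short contigs. SJAG_05118, annotated with a zinc knuckle and a Gag-polyprotein aspartyl protease, had 35.7 and 33.3 FPKM in *clr4-1* cells and 0.255 and 0.0692 FPKM in WT cells. SJAG_05143, with a retrotransposon Gag domain, had 18.3 and 19.0 FPKM in *clr4-1* cells and 0.0215 and 0.0815 FPKM in WT cells. SJAG_06637, a transposon fragment, had 20.8 and 17.6 FPKM in *clr4-1* cells and 0.101 and 0.155 FPKM in WT cells. Their log2 fold changes were 4.94, 4.22 and 4.15, each with an adjusted p under 0.0001 by limma. Retrotransposons occur in many near-identical copies, and how fragments that fit several copies were counted is not given in the sources used here, so the assignment of the signal to a single copy is uncertain for all 7 genes. In *pab2*Δ cells none of the 7 passed the 2-fold call against WT on the log2(FPKM + 1) scale. SJAG_03765 came near it, with 2.49 and 2.59 FPKM in *pab2*Δ cells, above both WT values, and a log2 fold change of *pab2*Δ over WT of 0.96 (limma, adjusted p = 0.0058). In *clr4-1* cells all 7 were at least 2-fold higher than in *pab2*Δ cells. For SJAG_06641 the log2 fold change of *clr4-1* over *pab2*Δ was 5.73 (limma, adjusted p = 5.57e-05).

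**Figure D2:**
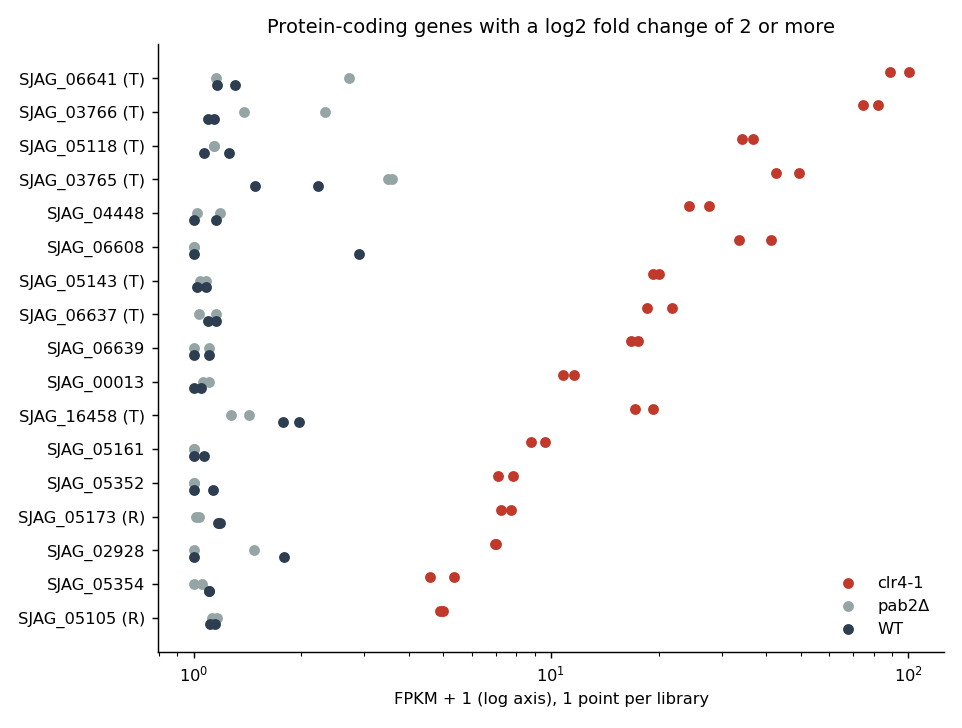
FPKM + 1 (log axis) in each of the 6 libraries for the 17 protein-coding genes called higher in *clr4-1* than in WT cells with a log2 fold change of at least 2, 1 gene per line, with *clr4-1* in red, *pab2*Δ in grey and WT in dark blue. (T) marks transposon-related genes and (R) RecQ-type helicase genes. In every gene drawn both *clr4-1* points lie to the right of all WT points, and to the right of both *pab2*Δ points. All 17 genes were drawn because they were called higher, and each had a WT mean under 1 FPKM. They passed the filter only through *clr4-1* cells, so their separation from WT is not independent evidence.

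Of the 31 protein-coding genes at least 2-fold higher, 15 lay near the ends of the assembled sequence. The contigs were inferred from the order of genes, and gave 3 long contigs of 1408 to 1911 genes and 7 short ones of 1 to 75 genes. Over all protein-coding genes, 31 of 4751 tested (0.652%) were at least 2-fold higher. On the short contigs 9 of 14 tested genes (64.3%) were at least 2-fold higher and none was at least 2-fold lower. Among the 10 genes nearest to each end of the long contigs 6 of 35 (17.1%) were higher and 1 lower, and among the rest 16 of 4702 (0.340%) were higher and 52 lower. Of the genes listed, 18 were on the short contigs and 50 in the end segments, so 4 and 15 did not reach the filter. Many of those that passed did so through *clr4-1* cells alone, and the shares of tested genes are a description.

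Some helicase genes of the RecQ type, which encode proteins that unwind DNA, lie next to telomeres in fission yeasts. SJAG_05173, on the end of a long contig, had 6.73 and 6.25 FPKM in *clr4-1* cells and 0.167 and 0.186 FPKM in WT cells (log2 fold change 2.67 ± 0.16, SE; limma, adjusted p = 2.05e-04). SJAG_05105, on a short contig, had 3.88 and 3.99 FPKM in *clr4-1* cells and 0.112 and 0.149 FPKM in WT cells (2.13 ± 0.17, SE; limma, adjusted p = 6.17e-04). Both were above both WT libraries by more than 20 times. SJAG_05353, further inward at the same end as SJAG_05173, was under the filter, with 1.29 and 1.08 FPKM in *clr4-1* cells and 0.0283 and 0.0761 FPKM in WT cells, and was not tested. The list also took in *hrq1* and *rqh1*, RecQ-type helicase genes inside long contigs. *hrq1* had 3.80 and 3.57 FPKM in *clr4-1* cells and 4.09 and 4.26 FPKM in WT cells, and *rqh1* had 5.67 and 5.99 FPKM in *clr4-1* cells and 6.001 and 5.92 FPKM in WT cells. Neither passed the test (limma, adjusted p = 0.216 and 0.759). The list as a whole had 2 of 4 tested members higher, a median of 1.05 and no member lower, against 15.2% higher over all genes. Both higher members had WT values under 1 FPKM, so they passed the filter only through *clr4-1* cells and had to be higher there. Of the 5 genes listed, 3 were annotated only from the study's own tables, and nothing is read from the count or the median.

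A second run of 4 consecutive genes on a short contig was higher throughout. It comprised the Gag gene SJAG_05143 and 3 genes with no annotation. SJAG_06639 had 15.8 and 16.5 FPKM in *clr4-1* cells and was listed at 0 and 0.103 FPKM in WT cells. SJAG_05352 had 6.13 and 6.83 FPKM in *clr4-1* cells and was listed at 0 and 0.133 FPKM in WT cells. SJAG_05050 had 2.70 and 4.28 FPKM in *clr4-1* cells and 0.278 and 0 FPKM in WT cells. The adjusted p-values by limma were 3e-05, 2.49e-04 and 0.00319, and every *clr4-1* value was above every WT value. All 4 genes of the run had WT means under 1 FPKM, as did SJAG_05161, named next. They passed the filter only through *clr4-1* cells and had to be higher there, so their direction is not independent evidence. SJAG_05161, without annotation and on another short contig, had 8.62 and 7.78 FPKM in *clr4-1* cells, against 0 and 0.072 FPKM in WT cells, and was at 0 in *pab2*Δ cells.

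Other genes near contig ends differed in size of change. SJAG_00013, SJAG_05354 and SJAG_06576, named next, each had a WT mean under 1 FPKM. They passed the filter only through *clr4-1* cells and had to be higher there. SJAG_00013, without annotation, had 10.6 and 9.83 FPKM in *clr4-1* cells and 0 and 0.0505 FPKM in WT cells (log2 fold change 3.45 ± 0.15, SE; limma, adjusted p = 5.71e-05). SJAG_05354, a C2H2 zinc-finger gene located 2 genes further inward from it, had 3.60 and 4.37 FPKM in *clr4-1* cells and 0.107 and 0.102 FPKM in WT cells. The untested helicase gene SJAG_05353 lies between them, and all 3 genes had higher values in both *clr4-1* libraries than in either WT library. SJAG_06576, which encodes a predicted transcription factor with a fungal binuclear zinc cluster, was higher by 1.04 (log2 scale; limma, adjusted p = 0.00281), with 1.97 and 2.51 FPKM in *clr4-1* cells and 0.524 and 0.626 FPKM in WT cells. Unlike most of these genes it was higher still in *pab2*Δ cells, with 7.04 and 6.65 FPKM. One end gene moved the other way. SJAG_02124, annotated as a CobW-like protein of cobalamin synthesis, had 0.862 and 1.00 FPKM in *clr4-1* cells and 3.31 and 3.18 FPKM in WT cells (-1.14 ± 0.14, SE; limma, adjusted p = 0.00233).

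**Figure D3:**
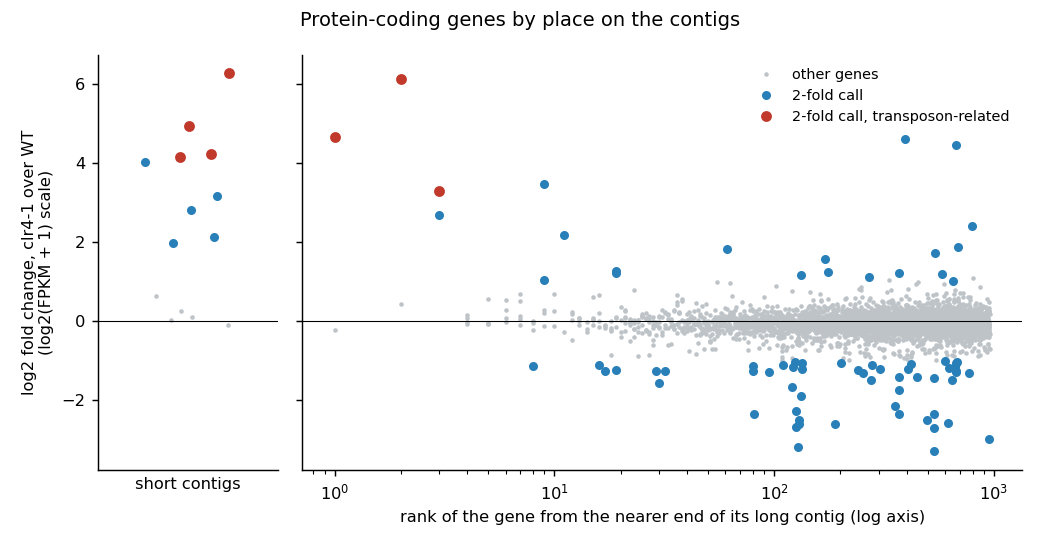
Log2 fold change of *clr4-1* over WT for each tested protein-coding gene (1 point per gene), on the 7 short contigs (left, spread sideways for visibility) and by rank from the nearer end of the 3 long contigs (right, log axis). Blue and red points are genes changed at least 2-fold, red those that are transposon-related; 9 of 14 genes on short contigs and 6 of 35 among the 10 nearest to an end were higher, against 16 of 4702 further in.

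Away from contig ends, the largest increase of a protein-coding gene was beside the mating-type genes. SJAG_04448, which has no annotation, had 23.3 and 26.7 FPKM in *clr4-1* cells and was listed at 0 and 0.157 FPKM in WT cells (log2 fold change 4.59 ± 0.15, SE; limma, adjusted p = 2.88e-05). Its WT mean was under 1 FPKM, so it passed the filter only through *clr4-1* cells and had to be higher there. In *pab2*Δ cells it had 0.183 and 0.0226 FPKM. It lies between *ser2*, a gene of serine synthesis, and the mating-type gene SJAG_05153. *ser2* did not pass the test (limma, adjusted p = 0.325).

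The mating-type genes themselves were not higher. SJAG_05153, which encodes an Mc-like transcription factor of the minus mating type, had 27.2 and 25.01 FPKM in *clr4-1* cells and 33.7 and 30.7 FPKM in WT cells, a log2 fold change of -0.29 ± 0.08 (SE; limma, adjusted p = 0.0312). This call was lost after TMM scaling (limma, adjusted p = 0.0681) and in each fit that left out 1 library. SJAG_05154, a Pi gene of the plus mating type, had 6.45 and 3.95 FPKM in *clr4-1* cells and 7.62 and 7.13 FPKM in WT cells and did not pass (limma, adjusted p = 0.101), although without *clr4-1* replicate 1 its difference was -0.76 (limma, adjusted p = 0.0137). SJAG_01113, a Pc-like gene of the plus mating type, had 51.7 and 56.6 FPKM in *clr4-1* cells and 54.4 and 50.8 FPKM in WT cells, so the strains overlapped (limma, adjusted p = 0.632). All 3 were at higher values in *pab2*Δ cells, where SJAG_05153 had 71.4 and 63.1 FPKM and SJAG_01113 had 81.3 and 76.2 FPKM.

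Some further genes inside the long contigs were low in WT cells and lay among tRNA genes. SJAG_06608, without annotation, had 32.6 and 40.2 FPKM in *clr4-1* cells and was listed at 0 and 1.91 FPKM in WT cells (log2 fold change 4.45 ± 0.48, SE; limma, adjusted p = 0.00159). SJAG_02928, without annotation, had 6.001 and 5.992 FPKM in *clr4-1* cells and 0 and 0.787 FPKM in WT cells (2.39 ± 0.34, SE; limma, adjusted p = 0.00379). SJAG_05250, a gene specific to *S. japonicus*, had 8.35 and 8.07 FPKM in *clr4-1* cells and 2.75 and 3.04 FPKM in WT cells (1.24 ± 0.13, SE; limma, adjusted p = 0.00164). In all 3 the *clr4-1* values were above the WT values. SJAG_06608 and SJAG_02928 had WT means under 1 FPKM, so they passed the filter only through *clr4-1* cells and had to be higher there. All 3 genes were taken from those called at least 2-fold higher, so their separation from WT is not independent evidence. Of the 10 genes nearest to each, tRNA genes made up 5, 5 and 6. Beside *rec25* there were 2, and there was none beside the other 12 interior genes that were at least 2-fold higher. None of the 3 was at least 2-fold higher in *pab2*Δ cells.

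Of the remaining increases, the genes named here had a WT mean of at least 1 FPKM, except *gpp4* and *spn7*. Both of these passed the filter only through *clr4-1* cells. *rec25*, a protein needed for meiotic recombination, had 22.7 FPKM in both *clr4-1* libraries and 6.52 and 6.01 FPKM in WT cells (log2 fold change 1.71 ± 0.05, SE; limma, adjusted p = 2.73e-05). SJAG_03827, of the amino acid transporter family, had 30.7 FPKM in both *clr4-1* libraries and 8.05 and 7.90 FPKM in WT cells (1.82 ± 0.04, SE; limma, adjusted p = 8.89e-06). SJAG_00179, a glutathione S-transferase, had 19.8 and 19.4 FPKM in *clr4-1* cells and 5.57 and 6.46 FPKM in WT cells (1.56 ± 0.06, SE; limma, adjusted p = 5.13e-05). These 3 genes showed small spread between libraries. *sdh8*, a mitochondrial protein, varied more, with 10.4 and 14.2 FPKM in *clr4-1* cells and 1.56 and 4.02 FPKM in WT cells (1.87 ± 0.32, SE; limma, adjusted p = 0.00722). Its call was lost without *clr4-1* replicate 2. SJAG_02946, a second gene of the amino acid transporter family, had 3.999 and 4.26 FPKM in *clr4-1* cells and 1.18 and 1.12 FPKM in WT cells. *gpp4*, of a protein family with GPPY motifs known from *S. japonicus*, had 2.14 and 1.81 FPKM in *clr4-1* cells and 0.166 and 0.394 FPKM in WT cells, and lies close behind the end segment of its contig. The septin gene *spn7* had 3.43 and 3.60 FPKM in *clr4-1* cells and 1.25 and 0.670 FPKM in WT cells.

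Several of these genes were at higher values in *pab2*Δ cells than in *clr4-1* cells. SJAG_00179 had 102 FPKM in both *pab2*Δ libraries, and *spn7* had 47.2 and 46.7 FPKM there. *rec25* had 50.2 and 46.9 FPKM in *pab2*Δ cells, so that *clr4-1* over *pab2*Δ was -1.06 on the log2 scale (limma, adjusted p = 2.16e-05). SJAG_03827 went the other way, with 21.0 and 20.003 FPKM in *pab2*Δ cells and a log2 fold change of *clr4-1* over *pab2*Δ of 0.56 (limma, adjusted p = 1.03e-04). Both comparisons use the same *clr4-1* libraries, and the comparison of each mutant with WT shares the WT libraries.

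The genes of the silencing machinery changed little. The list held 41 genes of H3K9 methylation, RNA interference (in which small RNAs guide silencing) and heterochromatin proteins. Of these, 5 were higher and 9 lower, with a median log2 fold change of -0.04, against 15.2% higher, 27.7% lower and a median of -0.07 over all genes. After TMM 8 were higher and 4 lower, and without 1 library 1 to 3 were higher and 2 to 5 lower. *clr4* was the only member changed at least 2-fold. *swi6*, which encodes the main HP1 protein, had 153 and 154 FPKM in *clr4-1* cells and 182 and 181 FPKM in WT cells (log2 fold change -0.24 ± 0.02, SE; limma, adjusted p = 0.00104). *chp2*, the other HP1 gene, had 34.6 and 34.3 FPKM in *clr4-1* cells and 39.9 and 42.8 FPKM in WT cells, a fall of 0.26 whose call was lost in 3 fits that left out a library (*clr4-1* replicate 1, *clr4-1* replicate 2 or WT replicate 2). *ago1*, encoding Argonaute, the protein that holds the small RNAs, had 45.1 FPKM in both *clr4-1* libraries and 53.1 and 53.7 FPKM in WT cells (-0.24 ± 0.03, SE; limma, adjusted p = 0.00259). *set2*, encoding the lysine 36 methyltransferase of histone H3, was higher, with 20.4 and 20.1 FPKM in *clr4-1* cells and 16.9 and 16.1 FPKM in WT cells (0.28 ± 0.05, SE; limma, adjusted p = 0.00798). Its call was lost without *clr4-1* replicate 1 and without WT replicate 2. Apart from *clr4*, the members named here differed by no more than 0.28 on the log2 scale.

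Among protein-coding genes, the largest decreases included many genes for the use of uracil, purines and their breakdown products. Yeasts can take up pyrimidines and purines and break them down as nitrogen sources; uricase, allantoicase and urease act on purines in turn, and the *urg* genes, named for their induction by uracil in *S. pombe*, act on pyrimidines. Of the 16 members, none was higher, 14 (87.5%) were lower and 12 were at least 2-fold lower. Over all genes 27.7% were lower and 15.2% higher. The median log2 fold change of the list was -1.92, against -0.07 over all genes. The 16 also took in *hpm1*, annotated as a predicted methyltransferase, which was not called. The members' FPKM values summed to 627 and 638 in the *clr4-1* libraries, against 2472 and 2478 in the WT libraries. The 14 calls held in each fit that left out a library, after TMM and with other pseudocounts.

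*uro1*, which encodes a predicted uricase, fell most. It had 8.14 and 9.15 FPKM in *clr4-1* cells, against 91.4 and 95.9 FPKM in WT cells (log2 fold change -3.30 ± 0.07, SE; limma, adjusted p = 5.46e-06). *urg1*, a predicted GTP cyclohydrolase II, had 63.4 and 61.2 FPKM in *clr4-1* cells, against 578 and 576 FPKM in WT cells (-3.19 ± 0.04, SE; limma, adjusted p = 8.76e-07). For both genes the gap between strains was many times the gap between libraries of a strain. *uck2*, a predicted uracil phosphoribosyltransferase, had 35.6 and 33.0 FPKM in *clr4-1* cells and 227 and 228 FPKM in WT cells. *urg2*, also a predicted uracil phosphoribosyltransferase, had 83.9 and 94.2 FPKM in *clr4-1* cells and 504 and 510 FPKM in WT cells. *urg3*, of the DUF1688 family, had 33.2 and 35.1 FPKM in *clr4-1* cells and 210 and 213 FPKM in WT cells. The log2 fold changes of these 3 genes were -2.70, -2.497 and -2.60 (limma, adjusted p = 5.46e-06, 5.13e-05 and 1.72e-06).

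Many of these genes lie in 2 clusters. The first runs from SJAG_04715 to *urg2*, and 6 of its 7 genes were at least 2-fold lower. At its border SJAG_04715, a membrane transporter gene, had 5.12 and 4.205 FPKM in *clr4-1* cells and 10.5 and 10.6 FPKM in WT cells. SJAG_04714, a uracil permease gene, had 11.8 and 10.7 FPKM in *clr4-1* cells and 58.0 and 58.3 FPKM in WT cells (log2 fold change -2.27 ± 0.05, SE; limma, adjusted p = 7.2e-06). The exception was *toe1*, between *uck2* and *urg1*, with 10.2 and 8.86 FPKM in *clr4-1* cells and 15.2 and 14.1 FPKM in WT cells, which fell by 0.58 (limma, adjusted p = 0.00317). Beyond the cluster, SJAG_04716 fell by 0.22 on one side, a call that was lost after TMM scaling (limma, adjusted p = 0.0624). On the other side SJAG_05337 fell by 0.13, a call also lost after TMM (limma, adjusted p = 0.214), and *tna1* did not pass the test (limma, adjusted p = 0.387).

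The second cluster consists of 4 consecutive genes. SJAG_04300, a predicted transthyretin, which in other species acts after uricase, had 5.32 and 8.15 FPKM in *clr4-1* cells and 38.3 and 37.4 FPKM in WT cells. It is followed by *uro1*. SJAG_04298, of the hydantoin racemase family, had 26.3 and 27.3 FPKM in *clr4-1* cells and 76.2 and 72.8 FPKM in WT cells. *xan1*, annotated as a predicted dioxygenase, had 5.38 and 4.32 FPKM in *clr4-1* cells and 36.3 and 38.5 FPKM in WT cells (log2 fold change -2.72 ± 0.09, SE; limma, adjusted p = 3e-05). All 4 were lower, and the change stopped on both sides. *inv1*, next to SJAG_04300, had 63.1 and 63.4 FPKM in *clr4-1* cells and 63.2 and 65.3 FPKM in WT cells. SJAG_04296, an amino acid permease gene next to *xan1*, had 9.40 and 10.4 FPKM in *clr4-1* cells and 12.0 and 11.6 FPKM in WT cells, and neither passed the test (limma, adjusted p = 0.592 and 0.102).

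**Figure D4:**
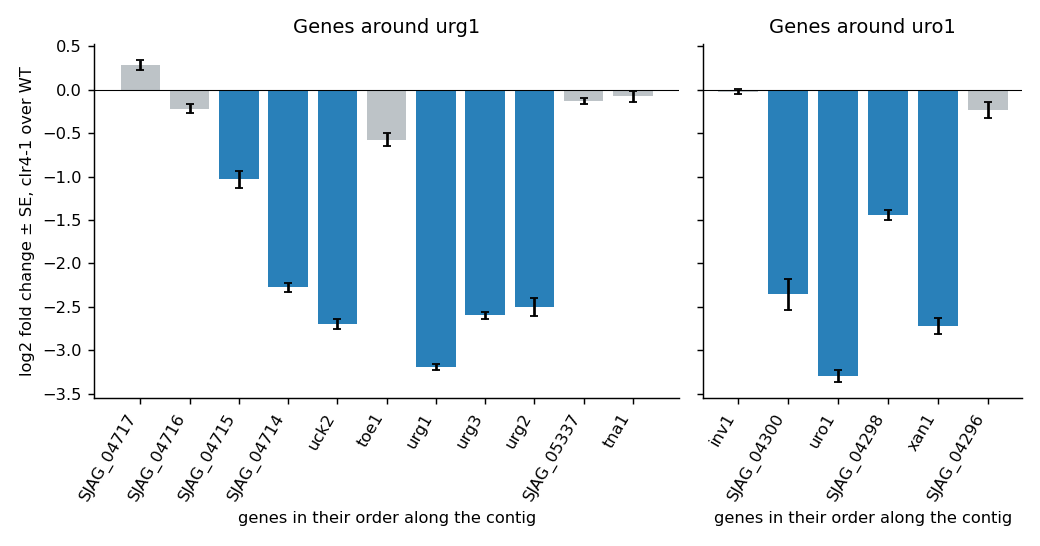
Log2 fold change of *clr4-1* over WT (bars, ± SE from limma with 2 libraries per strain) for the genes around *urg1* (left) and around *uro1* (right), in their order on the contig. Blue bars are genes at least 2-fold lower with an adjusted p under 0.05 and grey bars are the others; the bars fall to -3.19 at *urg1* and -3.30 at *uro1*, and the genes on either side of each cluster are near 0.

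Other genes of this list lay outside the clusters. SJAG_00036, a second gene of the hydantoin racemase family, had 43.8 and 39.7 FPKM in *clr4-1* cells and 130 and 123 FPKM in WT cells. *dal2*, the predicted allantoicase beside it, had 90.8 and 94.7 FPKM in *clr4-1* cells and 224 and 226 FPKM in WT cells. *dal1*, a predicted ureidoglycolate hydrolase, had 20.6 and 18.7 FPKM in *clr4-1* cells and 47.9 and 49.6 FPKM in WT cells. The log2 fold changes were -1.58, -1.27 and -1.27 (limma, adjusted p = 3e-05, 9.5e-06 and 5.92e-05). Of the urease genes, *ure7* fell by 0.48, *ure2* fell by 0.32 and *ure4* had a difference of -0.09 (limma, adjusted p = 0.121).

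The *urg* genes were lower still in *pab2*Δ cells. *urg1* had 9.90 and 9.28 FPKM there, and *urg2* had 8.77 and 6.96 FPKM. On the log2 scale *clr4-1* over *pab2*Δ was 2.58 for *urg1*, 3.35 for *urg2* and 1.18 for *urg3* (limma, adjusted p = 6e-07, 3.8e-06 and 4.57e-06). *xan1* went the other way, with 14.6 and 15.5 FPKM in *pab2*Δ cells and a log2 fold change of *clr4-1* over *pab2*Δ of -1.46 (limma, adjusted p = 4.99e-05). *uro1* had 8.70 and 9.37 FPKM in *pab2*Δ cells and did not differ past the threshold between the mutants (limma, adjusted p = 0.454). Over all genes the median of *clr4-1* over *pab2*Δ was -0.27 as deposited and 0.00 after TMM.

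Genes of arginine synthesis were lower as a group. Of 8 members 7 (87.5%) were lower, 3 of them at least 2-fold, and none was higher. Over all genes 27.7% were lower and 15.2% higher. The median log2 fold change of the list was -0.85, against -0.07 over all genes. *arg3*, the ornithine carbamoyltransferase gene, had 13.7 and 13.5 FPKM in *clr4-1* cells and 88.0 and 85.3 FPKM in WT cells (-2.58 ± 0.04, SE; limma, adjusted p = 2.71e-06). *arg11*, whose product carries out earlier steps of ornithine synthesis and which lies beside *arg3*, had 51.5 and 54.8 FPKM in *clr4-1* cells and 122 and 123 FPKM in WT cells. *arg41*, the argininosuccinate lyase gene, had 61.7 and 58.6 FPKM in *clr4-1* cells and 171 and 170 FPKM in WT cells. These were the members changed at least 2-fold, and no *clr4-1* value of theirs came near a WT value. *arg4* and *arg12*, for a carbamoyl-phosphate synthase subunit and argininosuccinate synthase, fell by 0.86 and 0.85. *arg6*, the acetylglutamate synthase gene, had 13.7 and 13.4 FPKM in *clr4-1* cells and 14.0 and 14.2 FPKM in WT cells and did not pass (limma, adjusted p = 0.322).

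Genes that break down GABA and glycine were lower too. GABA transaminase and succinate-semialdehyde dehydrogenase turn 4-aminobutyrate into succinate. *uga1*, the transaminase gene, had 49.2 and 50.4 FPKM in *clr4-1* cells and 287 FPKM in both WT libraries (log2 fold change -2.50 ± 0.03, SE; limma, adjusted p = 8.76e-07). SJAG_03293, a predicted dehydrogenase of this kind, had 63.2 and 62.2 FPKM in *clr4-1* cells and 281 FPKM in both WT libraries (-2.15 ± 0.03, SE; limma, adjusted p = 8.76e-07). A second predicted succinate-semialdehyde dehydrogenase gene of the list, SJAG_00674, named after its values were seen, was higher, with 3.75 and 3.73 FPKM in *clr4-1* cells and 2.75 and 3.22 FPKM in WT cells (0.25 ± 0.08, SE; limma, adjusted p = 0.0489). *gcv2*, a subunit of the glycine cleavage complex, had 9.66 and 9.88 FPKM in *clr4-1* cells and 25.2 and 25.4 FPKM in WT cells, and its partners *gcv1* and *gcv3* fell by 0.65 and 0.46. In the list of GABA, glutamate, proline and glycine genes, 6 of 11 tested members (54.5%) were lower and 3 (27.3%) higher, with a median of -0.39. Over all genes 27.7% were lower and 15.2% higher. The list also took in *asp1*, annotated as a predicted inositol hexakisphosphate kinase, which was not called. Without 1 library the 3 higher calls became 1 or 2. *car2*, the predicted ornithine aminotransferase, was among them, with 210 and 215 FPKM in *clr4-1* cells and 168 and 170 FPKM in WT cells (0.33 ± 0.04, SE; limma, adjusted p = 0.00219).

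Transporters of nitrogen compounds moved in both directions. The list of amino acid, ammonium and peptide transporters held 23 genes, 9 of them annotated only from the study's own tables. Of its 17 tested members 9 (52.9%) were lower, 5 of them at least 2-fold. A further 4 (23.5%) were higher, 2 of them at least 2-fold. Over all genes 27.7% were lower and 15.2% higher. The median log2 fold change of the list was -0.29. SJAG_04135, an amino acid permease gene, had 5.64 and 5.59 FPKM in *clr4-1* cells and 33.6 and 32.5 FPKM in WT cells (-2.37 ± 0.05, SE; limma, adjusted p = 5.38e-06). *amt1*, an ammonium transporter gene beside it, had 24.2 and 24.0 FPKM in *clr4-1* cells and 64.6 and 66.7 FPKM in WT cells (-1.41 ± 0.04, SE; limma, adjusted p = 2.02e-05). *put4*, the predicted proline permease, had 2.37 and 2.06 FPKM in *clr4-1* cells and 9.58 and 9.01 FPKM in WT cells (-1.68 ± 0.09, SE; limma, adjusted p = 1.44e-04). The 2 members with the largest increases, SJAG_03827 and SJAG_02946, are described above and are known only by their family.

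Of the 55 genes at least 2-fold lower, 29 belonged to a list. Among the others, *cbm1*, which encodes a protein with a fungal cellulose-binding domain, had 7.65 and 5.88 FPKM in *clr4-1* cells and 59.2 and 60.3 FPKM in WT cells (log2 fold change -2.98 ± 0.13, SE; limma, adjusted p = 5.34e-05). SJAG_05182, a transporter of the MFS superfamily, had 26.0 and 26.3 FPKM in *clr4-1* cells and 165 and 166 FPKM in WT cells (-2.61 ± 0.03, SE; limma, adjusted p = 8.76e-07). *cda1*, the chitin deacetylase gene next to *dal1*, had 13.8 and 13.0 FPKM in *clr4-1* cells and 75.7 and 70.8 FPKM in WT cells (-2.37 ± 0.05, SE; limma, adjusted p = 5.46e-06). For these 3 genes no *clr4-1* value came near a WT value. Among genes with high expression, chosen here after their values were seen, *yak3*, an aldose reductase gene, had 685 and 676 FPKM in *clr4-1* cells and 1636 and 1632 FPKM in WT cells (-1.26 ± 0.02, SE; limma, adjusted p = 1.72e-06). SJAG_01968, an aspartic peptidase gene, had 103 and 108 FPKM in *clr4-1* cells and 391.7 and 398 FPKM in WT cells.

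Genes of mating and entry into meiosis were lower more often than higher, as were all genes tested. Fission yeasts mate and enter meiosis when nitrogen runs out, through the transcription factor Ste11, which in *S. pombe* switches on *mei2*, the RNA-binding protein that starts meiosis. Of 30 tested members 15 were lower, 4 of them at least 2-fold, and 2 were higher, with a median log2 fold change of -0.21 against -0.07 over all genes. *ste11* had 1.12 and 0.842 FPKM in *clr4-1* cells and 4.03 and 3.38 FPKM in WT cells (-1.25 ± 0.14, SE; limma, adjusted p = 0.00183). *mei2* had 10.7 and 10.8 FPKM in *clr4-1* cells and 26.1 and 26.8 FPKM in WT cells (-1.22 ± 0.04, SE; limma, adjusted p = 2.98e-05). *atf21*, encoding a transcription factor of the bZIP type, had 25.1 and 27.3 FPKM in *clr4-1* cells and 94.0 and 86.3 FPKM in WT cells (-1.74 ± 0.06, SE; limma, adjusted p = 3e-05). In each of these regulators both *clr4-1* libraries lay below both WT libraries, which was so in 47.2% of all genes tested. *rst2*, which encodes an activator of *ste11* in *S. pombe*, had 29.0 and 27.8 FPKM in *clr4-1* cells and 57.3 and 55.8 FPKM in WT cells, just short of 2-fold.

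*isp6*, a vacuolar serine protease gene, was the only gene at least 2-fold lower in *clr4-1* cells and at least 2-fold higher in *pab2*Δ cells, both against WT. It had 61.1 and 62.8 FPKM in *clr4-1* cells, 363 and 372 FPKM in *pab2*Δ cells and 146 and 145 FPKM in WT cells. The log2 fold change of *clr4-1* over *pab2*Δ was -2.55 (limma, adjusted p = 3.55e-07). Of *mei4*, the forkhead factor of the middle phase of meiosis in *S. pombe*, named here after its values were seen, *clr4-1* cells had 2.72 and 3.06 FPKM and WT cells 3.42 and 2.69 FPKM (limma, adjusted p = 0.723).

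The list of meiosis and sporulation genes, which also holds *mei2*, showed no common direction. Of 66 tested members 15 (22.7%) were higher and 14 (21.2%) lower, against 15.2% higher and 27.7% lower over all genes. In each direction 2 were changed at least 2-fold, and the median was 0.04. Without 1 library the lower calls became 7 to 9. The 2 largest increases were *rec25* and *spn7*. The 2 members at least 2-fold lower were *mei2* and *mug143*. *mug143*, named for its expression in meiosis, had 56.1 and 66.7 FPKM in *clr4-1* cells and 139 FPKM in both WT libraries (log2 fold change -1.17 ± 0.08, SE; limma, adjusted p = 3.21e-04).

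Genes that work where silent chromatin lies, at centromeres, were changed by less than 2-fold. Of 63 kinetochore, cohesin and spindle checkpoint genes 16 (25.4%) were lower and 3 (4.76%) higher, with a median of -0.10. The lower share was near the 27.7% of all genes, and the higher share was below their 15.2%. The lower count was 9 after TMM and 9 to 13 without 1 library. *dad5*, of the DASH complex that holds kinetochores to microtubules, had 22.2 and 20.1 FPKM in *clr4-1* cells and 38.5 and 36.2 FPKM in WT cells (log2 fold change -0.79 ± 0.06, SE; limma, adjusted p = 5.89e-04). *mad2*, of the spindle checkpoint, had 22.2 and 22.3 FPKM in *clr4-1* cells and 30.8 and 34.8 FPKM in WT cells.

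Histone genes were slightly lower. Of 12 genes listed as histones or by a histone fold 11 (91.7%) were lower, none at least 2-fold, with a median of -0.20. Over all genes 27.7% were lower, with a median of -0.07. After TMM 9 of the 12 were lower. *hhf2*, encoding histone H4, had 529 and 489 FPKM in *clr4-1* cells and 693 and 689 FPKM in WT cells (log2 fold change -0.44 ± 0.04, SE; limma, adjusted p = 7.94e-04). *hht2*, encoding histone H3, had 270 and 278 FPKM in *clr4-1* cells and 356 and 347 FPKM in WT cells (-0.36 ± 0.03, SE; limma, adjusted p = 4.08e-04). Histone genes have near-identical copies, so the split between copies is uncertain.

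Of 44 tested DNA repair and replication stress genes 7 were higher and 5 lower, with a median of -0.03. The share of higher genes was near the 15.2% of all genes and that of lower genes under their 27.7%. After TMM 10 were higher and 1 lower, and without 1 library the 5 lower became 1 to 3. *chl1*, encoding a helicase of sister chromatid cohesion, had 13.8 and 13.4 FPKM in *clr4-1* cells and 6.32 and 6.54 FPKM in WT cells (log2 fold change 0.98 ± 0.05, SE; limma, adjusted p = 8.12e-05). *rad9*, of the checkpoint clamp, had 43.5 and 41.9 FPKM in *clr4-1* cells and 26.2 and 26.5 FPKM in WT cells (0.67 ± 0.03, SE; limma, adjusted p = 1.0e-04). *suc22* and *cdc22*, the subunits of ribonucleotide reductase, were higher by 0.43 and 0.33. All 4 of these genes were above WT in both *clr4-1* libraries, which was so in 26.4% of all genes tested.

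Genes of ribosomes rose by small amounts in large numbers. The median log2 fold change of 140 cytosolic ribosomal protein genes was 0.12, against -0.07 over all genes. Of the 140, 112 (80.0%) were higher and none lower, against 15.2% higher and 27.7% lower over all genes. Without 1 library the count was 66 to 72, and after TMM it was 128. *rps14a*, the gene with the largest change in this list, had 430 and 397 FPKM in *clr4-1* cells and 287 and 285 FPKM in WT cells (0.53 ± 0.04, SE; limma, adjusted p = 5.54e-04). Of 125 ribosome biogenesis genes 94 (75.2%) were higher and 4 (3.2%) lower, with a median of 0.20. *gar2*, a nucleolar protein gene needed for rRNA processing, had 385 and 376 FPKM in *clr4-1* cells and 245 and 253 FPKM in WT cells (0.61 ± 0.03, SE; limma, adjusted p = 6.51e-05). *nog2*, a predicted GTPase of ribosome export, had 261 and 263 FPKM in *clr4-1* cells and 183 and 181 FPKM in WT cells. No member of either list changed 2-fold.

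Of 52 chaperone genes 18 were lower and 6 higher, with a median of -0.06, near the 27.7% lower and 15.2% higher of all genes. After TMM 13 were lower and 11 higher, and without 1 library the 18 lower became 9 to 12. *hsp104* had 24.3 and 23.9 FPKM in *clr4-1* cells and 34.8 and 33.6 FPKM in WT cells. Of 15 glycolysis and fermentation genes 8 were lower and 1 higher, led by the hexokinase gene *hxk2* with 239 and 236 FPKM in *clr4-1* cells and 423 and 413 FPKM in WT cells (log2 fold change -0.81 ± 0.03, SE; limma, adjusted p = 2.88e-05). The 53.3% lower in this list stood against 27.7% of all genes, while its median of -0.06 was near their -0.07. After TMM 5 of its members were lower and 3 higher, with a median of 0.01. Of 52 tested respiratory chain and ATP synthase genes 15 were lower and 4 higher, with a median of -0.13, near the 27.7% lower and below the 15.2% higher of all genes. The 15 lower became 10 after TMM and 8 to 11 without 1 library. In the GPPY and PLLLP families, found in *S. japonicus*, 12 of 33 listed members passed the filter, of which 3 were higher and 1 lower. *pll16*, the lower one, had 76.8 and 76.6 FPKM in *clr4-1* cells and 154 and 168 FPKM in WT cells and lies next to SJAG_01968.

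**Figure D5:**
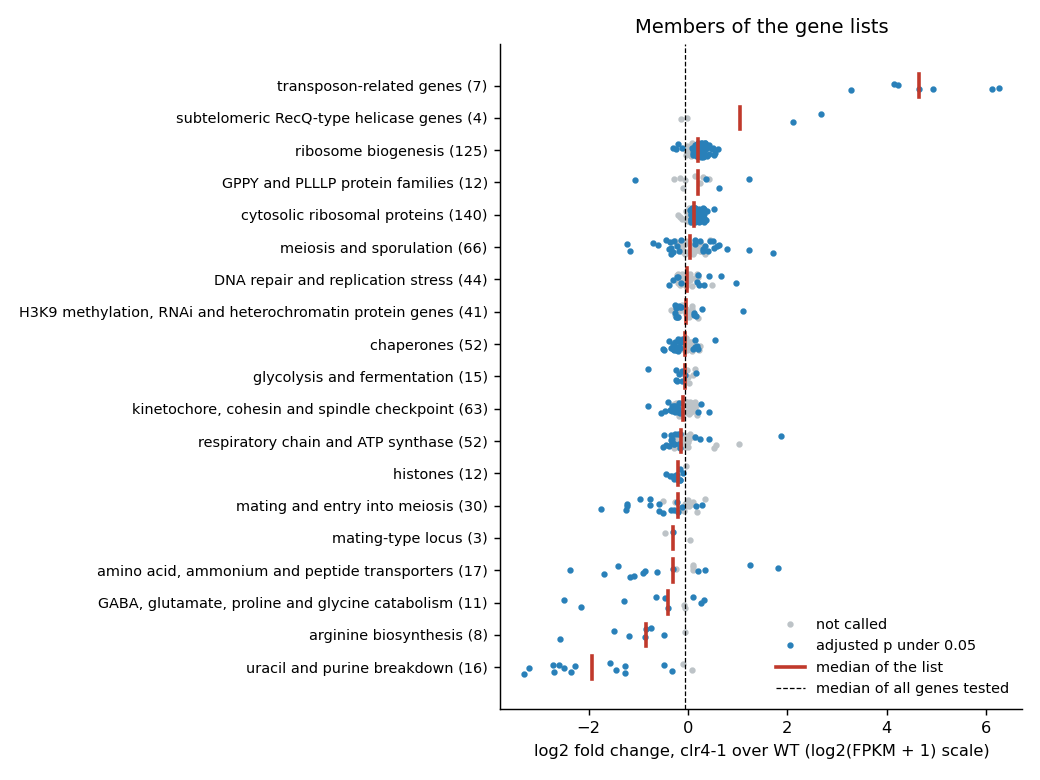
Log2 fold change of *clr4-1* over WT for each tested member of the gene lists (1 point per gene, number tested in brackets), with blue points for an adjusted p under 0.05 and grey points for the others. Red bars are list medians and the dashed line is the median of all genes tested, -0.07. The medians run from -1.92 for uracil and purine breakdown to 4.65 for the transposon-related genes. The transposon-related genes passed the filter only through *clr4-1* cells.

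Set directly against *pab2*Δ cells, 111 of 4856 genes (2.29%) were at least 2-fold higher and 372 (7.66%) at least 2-fold lower in *clr4-1* cells. These counts moved with scaling, to 200 higher and 230 lower after TMM. Against WT, *pab2*Δ cells had 315 genes (6.49%) at least 2-fold higher and 112 (2.31%) at least 2-fold lower, beside 33 and 55 in *clr4-1* cells. In *pab2*Δ cells 1 of the 14 tested protein-coding genes on short contigs was at least 2-fold higher than in WT cells, beside 9 in *clr4-1* cells. In the end segments of long contigs it was 3 of the 35, beside 6 in *clr4-1* cells. These counts cover only genes that passed a filter on *clr4-1* and WT values, so genes that rose in *pab2*Δ cells alone could be left out. In the end segments SJAG_01096 was not tested, with 5.36 and 5.97 FPKM in *pab2*Δ cells and 0.0551 and 0.0567 FPKM in WT cells. The counts therefore cannot show whether increases at contig ends were particular to *clr4-1* cells.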

How the data were processed

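Total RNA of *S. japonicus* WT, *clr4-1* and *pab2*Δ cells was sequenced in 2 libraries per strain. The authors deposited a single table with an FPKM value for each gene in each library. No unit is stated there, and FPKM was inferred from the values and column names. The submitters' processing notes name FastQC 0.11.6, STAR 2.5.3a and StringTie 1.3.1c. The genome build and the handling of fragments that fit several genes are not given in the sources used here. The depth is unknown. The authors' columns of mutant to WT ratios were not used. The *pab2*Δ columns carry no replicate number.

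Values were transformed to log2(FPKM + 1), and genes averaging at least 1 FPKM over the *clr4-1* and WT libraries were compared in limma 3.58.1, run in R 4.3.3, letting the variance depend on the mean. The 6 libraries shared 1 estimate of the spread, and p-values were adjusted by Benjamini-Hochberg. Same-numbered *clr4-1* and WT libraries did not deviate together (correlation across genes -0.09), so no pairing was used in the model. A call needed an adjusted p under 0.05, and a 2-fold call also a log2 fold change of at least 1. The procedure was tested on simulated data. Figures were drawn with matplotlib 3.10.9.

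Symbols and annotations came from the deposited table, RefSeq and the study's tables, the last alone for 159 genes. Gene order came from RefSeq's SJ5 assembly, in which 5213 genes matched. It was used for order only, and contigs were inferred from where start positions fall back by more than 10000 bases.

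The genes named are *clr4*, its neighbours and *pab2*; the 15 largest increases and decreases that were called and whose FPKM ratio passed 2 or 0.5 in each replicate; up to 5 called members with the largest change per list; genes the study names for *clr4-1*; runs of 3 or more consecutive 2-fold calls; genes at 0 in a strain; and genes with opposite 2-fold calls in the mutants. Other genes were named after their values were seen. The comparison, lists and rules were chosen with earlier results of these data known. Alternatives were TMM scaling, other pseudocounts (0.1 and 5 FPKM), other filters (none and a mean of 5 FPKM), the 4 libraries alone, a replicate block and leaving out each library.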

Additional observations from a re-analysis of the deposited data

How the results depend on the processing

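Counts of weak calls depended most on the processing. The 1345 genes lower in *clr4-1* than in WT cells became 864 after TMM scaling and 744 to 883 without 1 library, and the 738 higher genes became 494 to 516 without 1 library. The 33 genes at least 2-fold higher became 21 with a mean of at least 5 FPKM, 32 to 49 without 1 library, and the 55 at least 2-fold lower became 58 to 63. Of the 33 and 55 genes, 30 to 32 and 54 kept an adjusted p under 0.05 by limma without 1 library. A ratio above 2 was seen in both replicates for 31 genes, against 47 with no filter, 16 with a mean of at least 5 FPKM, 17 above 3-fold and 52 to 61 from 1 replicate alone. Those with a ratio below 0.5 in both numbered 56, against 24 under a 3-fold rule and 78 to 80 from 1 replicate. Against *pab2*Δ the 111 genes at least 2-fold higher became 200 after TMM, and the 372 lower became 230 after TMM and 232 with a pseudocount of 5 FPKM, with 106 to 121 and 367 to 375 without 1 library. With a replicate block, in the 4 libraries alone, 614 genes were higher and 963 lower, 34 and 55 of them at least 2-fold. SJAG_01113, at 0.04, changed sign without a library, where it ran from -0.0253 to 0.1037. Of 1868 values over 174 named genes, 1786 kept direction and side of the threshold, 58 lost the call and 22 gained it. The cause of these changes was not tested. With 2 libraries per strain and no depth, small changes rest on the spread between libraries alone.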

Other observations

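tRNA genes were listed 322 times in the table, and 70 of them reached a mean of 1 FPKM. Of these 70, 47 were listed at 0 in at least 1 of the *clr4-1* and WT libraries. In 31 genes both libraries of 1 strain were at 0 while the other strain had a mean of at least 1 FPKM, 21 of them at 0 in WT cells and 10 at 0 in *clr4-1* cells, and 29 of the 31 were tRNA genes. The others were tRNA pseudogenes.

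SJAG_16164 had 13.8 and 38.1 FPKM in *clr4-1* cells, 6.44 and 50.97 FPKM in *pab2*Δ cells and was listed at 0 in both WT libraries (limma, adjusted p = 0.0127). SJAG_16145 had 12.6 and 11.6 FPKM in *clr4-1* cells and was listed at 0 in both WT libraries (limma, adjusted p = 0.0178). In the other direction, SJAG_16118 was listed at 0 in both *clr4-1* libraries and had 13.5 and 25.6 FPKM in WT cells (limma, adjusted p = 0.0312). SJAG_16122 was listed at 0 in both *clr4-1* libraries and had 13.4 and 6.38 FPKM in WT cells (limma, adjusted p = 0.00108). The first of these lost its call in 3 of the 4 fits that left out a library, and SJAG_16145 and SJAG_16118 in all 4. Some tRNA genes had the same value to all digits in a library, as SJAG_16326 and SJAG_16428 with 4.04 FPKM in *clr4-1* replicate 2, and copies of a tRNA gene share their sequence, so single tRNA genes cannot be told apart here.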
